A study of Mus musculus with 14 samples.

Results

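The amino acid transporter families measured here are 59 genes of the Slc1, Slc3, Slc6, Slc7, Slc36, Slc38 and Slc43 families, out of 19237 named genes on a mouse expression array. They were chosen by symbol alone, from probe sets paired with exactly 1 gene symbol, and for genes with several probe sets the brightest on average over the 14 arrays was used. The Slc6 family gave 19 genes, Slc7 gave 14, Slc38 gave 11, Slc1 gave 7, Slc36 gave 4, Slc43 gave 3 and Slc3 gave 1. The Slc7 count includes Slc7a6os, which is named for its place on the strand opposite Slc7a6 and is no transporter. Slc3a1, Slc6a9, Slc7a7 and Slc7a10 lay only on probe sets shared with other symbols and were not analysed here.

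Livers of 7 mice labelled LRH-1 K289R were compared with livers of 7 mice labelled LRH-1 WT, with 1 array for each liver. LRH-1 is the nuclear receptor encoded by Nr5a2, and K289R replaces a lysine that accepts the small modifier SUMO with arginine. Mice of both genotypes were 17 to 19 weeks old, ate ad libitum and were killed at 7 am, and no other allele or agent was given in the labels. Each array was labelled a biological replicate, and the sources used here do not give sex, litter, how the allele was made or the hybridisation batch. The comparison asks how the substitution alters hepatic transcripts.

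Amino acid carriers move substrates across the plasma membrane or the lysosomal membrane by coupling to sodium or protons, by exchange, or by facilitated diffusion. In the Slc3 and Slc7 families, the heavy chain Slc3a2 (CD98) binds a light chain such as Slc7a5 and brings it to the cell surface. In liver, carriers supply amino acids for the urea cycle, gluconeogenesis and protein synthesis, glutamine is taken up and released in different zones of the lobule, and several carrier genes respond to amino acid shortage through the transcription factor ATF4.

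All levels are log2(intensity + 1) and all differences are K289R minus WT on that scale, with the standard error (SE) of the limma model. Array correlations lay between 0.969 and 0.996. The interquartile range of an array was 2.28 to 2.70 in K289R livers and 2.36 to 2.83 in WT livers. The median of 1044 olfactory receptor genes, taken here as the level of unexpressed genes, was 3.34 to 3.52 on K289R arrays and 3.36 to 3.49 on WT arrays, and their 95th percentile was 5.00 to 5.34 on K289R arrays and 4.99 to 5.27 on WT arrays. None of 6 hepatocyte markers passed the test, and all 6 lay above the olfactory 95th percentile on every array. In whole liver, fewer cells of a type and less RNA per cell cannot be told apart.

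Of the 59 transporter genes, 6 were higher and 3 were lower in K289R livers at a Benjamini-Hochberg adjusted p under 0.05 (limma, 2-sided, adjusted over all 19237 genes). The genes that rose were Slc3a2, Slc7a5, Slc38a2, Slc36a4, Slc1a5 and Slc7a8, and those that fell were Slc38a9, Slc38a6 and Slc1a2. Over all genes 19.1% passed, 8.37% higher and 10.8% lower, so the 15.3% of transporter genes that passed was not above the background. The arrays of the genotypes did not overlap for 4 transporter genes, Slc3a2, Slc7a5, Slc38a6 and Slc38a9, against 7.54% of all genes. Of the 30 transporter genes above the olfactory 95th percentile on all 14 arrays, 9 passed, and of all genes at that level 30.0% passed. The other 29 gave no call, and their differences lay between -0.16 and 0.18. The median difference was 0.07 over the 59 genes and 0.05 over all genes. When each array was centred on its median, 3 transporter genes were higher and 4 were lower, so the share of higher calls was 42.9%, against 66.7% on the deposited scale.

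**Figure D1:**
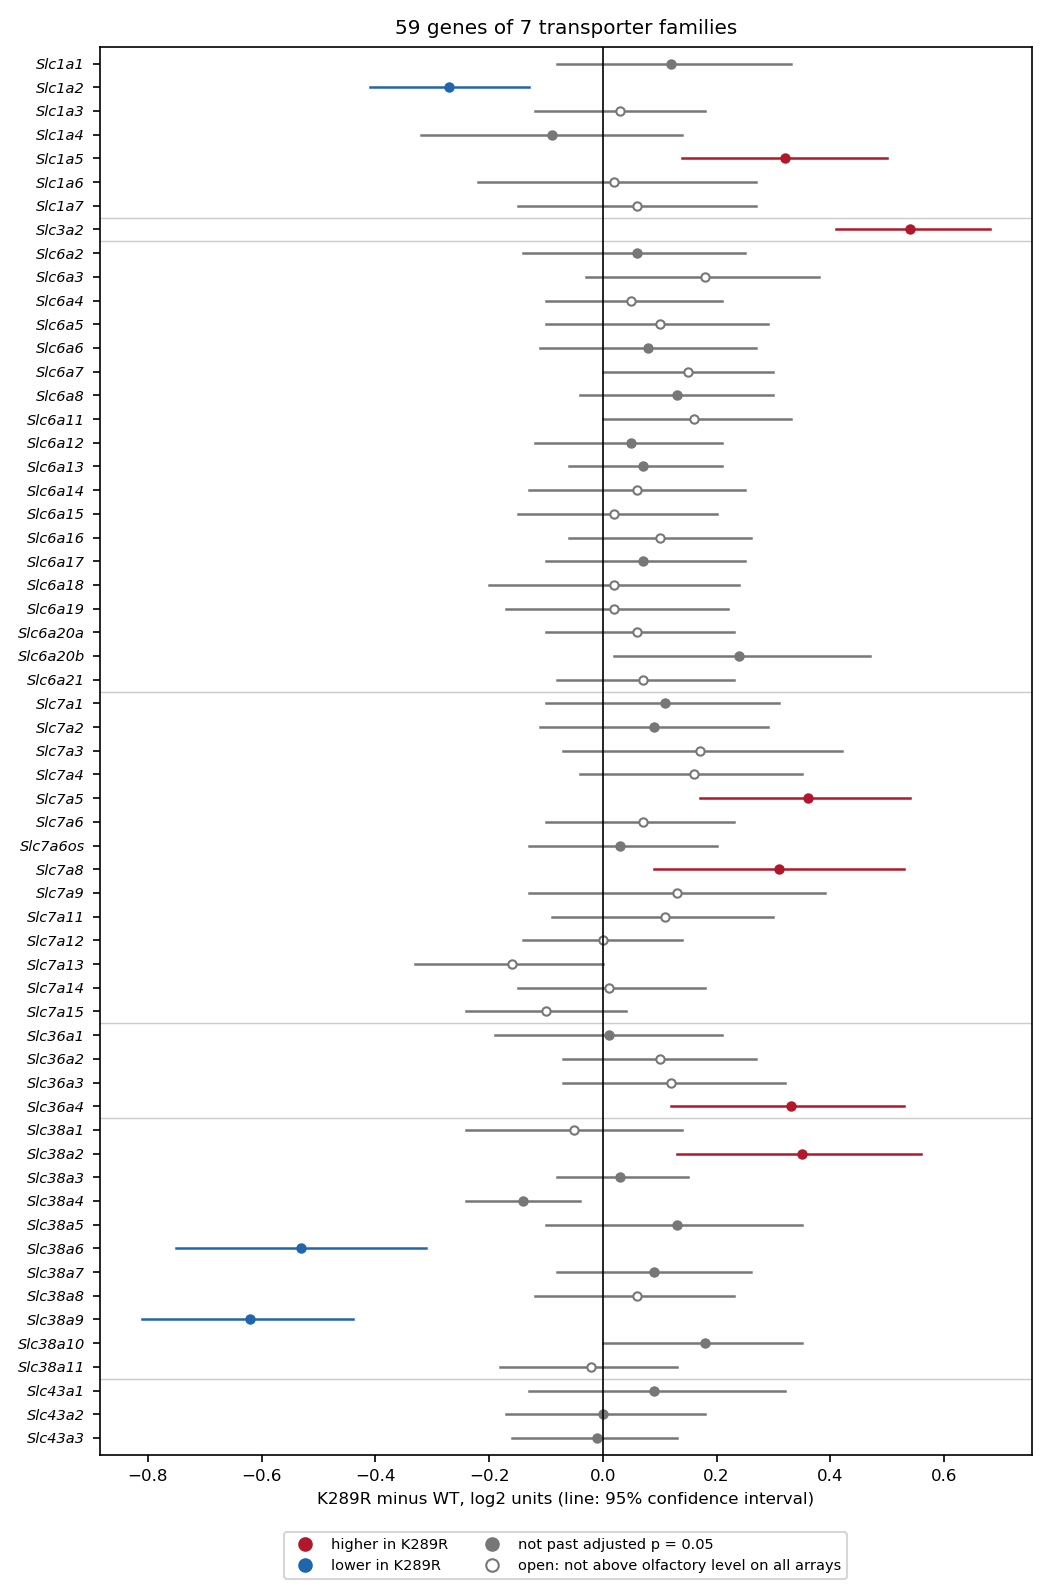
Difference between K289R and WT livers for each of the 59 genes, in log2 units on the horizontal axis, with points for the estimate and lines for its 95% confidence interval (limma, 7 arrays per genotype); open points are genes not above the olfactory 95th percentile on all arrays. The 6 genes that were higher and the 3 that were lower lie at filled points, and the 19 Slc6 genes lie between 0.02 and 0.24.

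Slc3a2, the heavy chain of the heterodimeric carriers, rose. It measured 9.84, 10.05 and 10.26 (lowest, median and highest) on K289R arrays and 9.38, 9.52 and 9.68 on WT arrays. Every K289R array lay above every WT array. The difference was 0.54 ± 0.06 (SE), a 1.46-fold higher level, with an adjusted p of 4.14e-06 in limma.

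Of the 7 measured Slc7 light chains 2 were higher and 0 were lower, and both calls were in partners of Slc3a2. The share that passed was 28.6%, against 19.1% of all genes and 30.0% of genes above the olfactory level on all arrays. Slc7a5 (LAT1), which exchanges large neutral amino acids, measured 6.33, 6.49 and 6.95 on K289R arrays and 6.02, 6.24 and 6.30 on WT arrays, again with no overlap. Its difference was 0.36 ± 0.09, or 1.28-fold (limma adjusted p = 0.00593). Slc7a8 (LAT2), another carrier of large neutral amino acids, measured 6.32, 6.58 and 7.02 on K289R arrays and 6.10, 6.35 and 6.41 on WT arrays. Only 4 of 7 K289R arrays lay above every WT array, and the difference of 0.31 ± 0.10 had an adjusted p of 0.0456 in limma. Slc7a6 and Slc7a11, further partners of Slc3a2, were not above the olfactory level on all arrays. Slc7a6, an exchanger of cationic and neutral amino acids, differed by 0.07 ± 0.08. Slc7a11, the cystine and glutamate exchanger, averaged 3.69 ± 0.24 in K289R livers and 3.59 ± 0.13 in WT livers (SD, n = 7 each) and lay above the olfactory 95th percentile on 0 of 14 arrays.

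Among the carriers of cationic amino acids, 0 of 5 genes passed, with differences between 0.01 and 0.17. Slc7a2, the arginine carrier known for its high level in liver, averaged 9.78 ± 0.27 in K289R livers and 9.69 ± 0.11 in WT livers (SD, n = 7 each). Its K289R arrays, from 9.26 to 10.11, spanned the whole WT range of 9.50 to 9.83. The difference of 0.09 ± 0.10 had a 95% confidence interval from -0.11 to 0.29 (limma adjusted p = 0.56). Slc7a1, the widely expressed arginine and lysine carrier, differed by 0.11 ± 0.10 and Slc7a3 by 0.17 ± 0.12, neither past the threshold. Slc7a3 and Slc7a14 lay above the olfactory 95th percentile on 0 of 14 arrays and Slc7a4 on 8, which limits what can be read of them. Slc7a6os differed by 0.03 ± 0.08.

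The Slc1 family held a call in each direction, in exchangers of neutral amino acids and in glutamate carriers. Its share that passed was 28.6%, against 19.1% of all genes and 30.0% of genes above the olfactory level on all arrays. Slc1a5 (ASCT2), the glutamine exchanger, measured 5.55, 5.62 and 6.01 on K289R arrays and 5.17, 5.36 and 5.57 on WT arrays. Its WT levels were close to the olfactory 95th percentile, 4.99 to 5.27 on WT arrays, though above it on each array. Of the K289R arrays, 5 of 7 lay above every WT array, and the difference was 0.32 ± 0.09, or 1.25-fold (limma adjusted p = 0.0115). Its relative Slc1a4 (ASCT1), an exchanger of alanine, serine and cysteine, averaged 5.93 ± 0.23 in K289R livers and 6.02 ± 0.22 in WT livers (SD, n = 7 each) and did not pass.

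Slc1a2 (GLT-1), the glutamate carrier of astrocytes and of the hepatocytes around the central vein, fell. It measured 8.71, 8.88 and 9.18 on K289R arrays and 8.97, 9.17 and 9.25 on WT arrays. Of the K289R arrays 6 of 7 lay below every WT array, and 1, at 9.18, lay within the WT range. The difference was -0.27 ± 0.07, a 1.21-fold lower level (limma adjusted p = 0.0082). Of the other glutamate carriers, Slc1a1 differed by 0.12 ± 0.10 and did not pass, and Slc1a3, Slc1a6 and Slc1a7 were not above the olfactory level on all arrays.

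Slc1a2 was also set beside genes of lobular zonation. Of 7 pericentral genes measured, 1 was higher and 1 was lower, with a median difference of 0.12. The share that passed was 28.6%, against 19.1% of all genes and 30.0% of genes above the olfactory level on all arrays. Rhbg, an ammonium carrier, was higher by 0.76 ± 0.11 (limma adjusted p = 3.01e-05), while Cyp1a2, a drug-metabolising cytochrome, differed by -0.38 ± 0.09 (adjusted p = 0.00375). Glul, glutamine synthetase of the pericentral hepatocytes, averaged 11.36 ± 0.15 in K289R livers and 11.22 ± 0.09 in WT livers (SD, n = 7 each) and did not pass (adjusted p = 0.148). A periportal list of 6 genes had only 3 measured, and 2 of these were higher. That share was 66.7%, against 19.1% of all genes and 30.0% of genes above the olfactory level on all arrays. Hal, histidine ammonia-lyase, was higher by 0.36 ± 0.07 and Pck1, of gluconeogenesis, by 0.96 ± 0.25 (limma adjusted p = 0.00129 and 0.00865). Cdh1 differed by -0.02 ± 0.16 and did not pass (adjusted p = 0.938). With replicates 1 to 4 and 5 to 7 of each genotype as random blocks 1 periportal gene was higher, as the adjusted p of Pck1 became 0.0623.

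**Figure D2:**
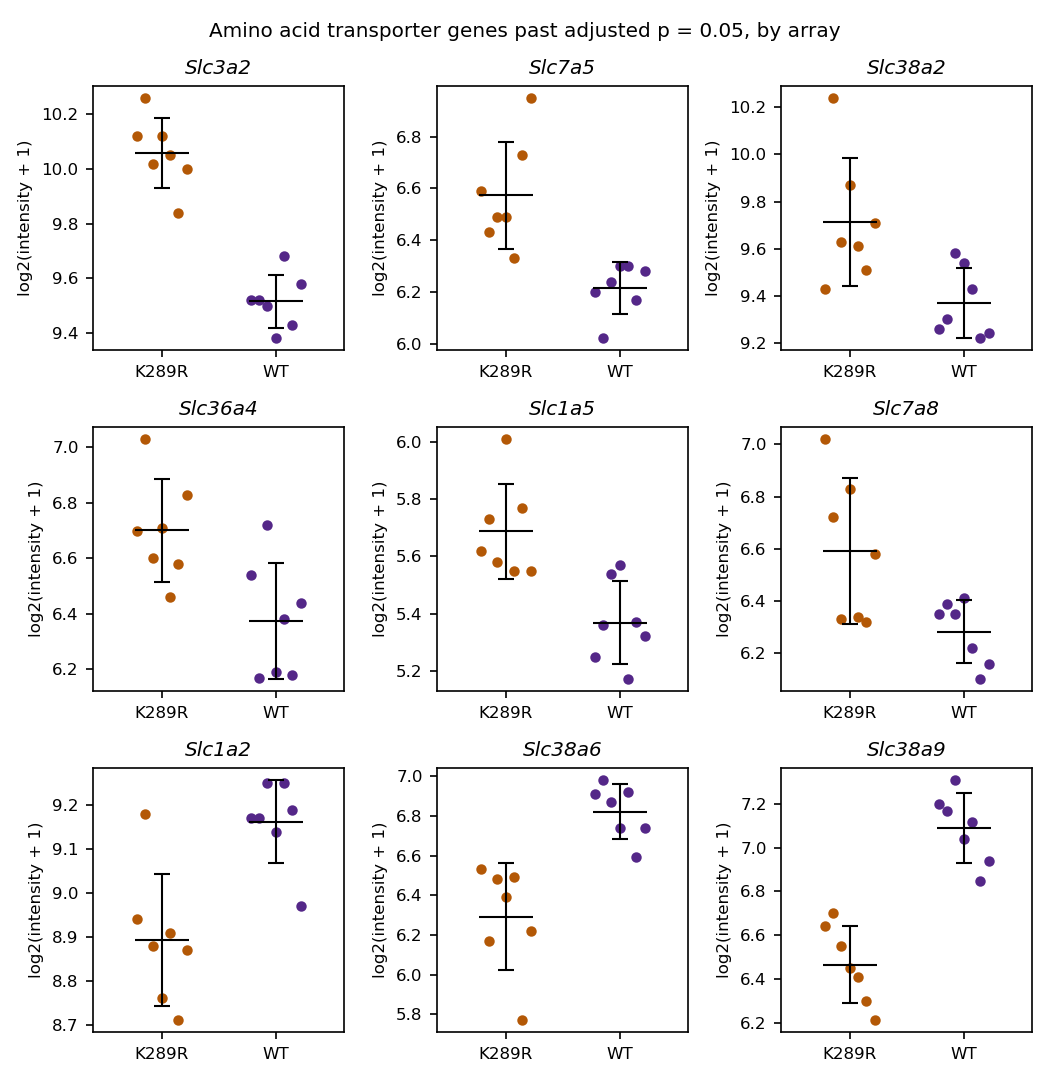
Level of the 9 transporter genes that passed, as log2(intensity + 1) on the vertical axis, with 1 point per array for 7 K289R and 7 WT livers, a bar at the group mean and whiskers of 1 SD; the vertical axes do not start at 0 and differ between panels. The points of the genotypes do not overlap for Slc3a2, Slc7a5, Slc38a6 and Slc38a9.

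The Slc38 family of sodium-coupled neutral amino acid carriers held 3 calls among 11 genes, 1 higher and 2 lower. That share was 27.3%, against 19.1% of all genes and 30.0% of genes above the olfactory level on all arrays. Slc38a2 (SNAT2), a plasma membrane carrier that cells raise on amino acid shortage, measured 9.43, 9.63 and 10.24 on K289R arrays and 9.22, 9.30 and 9.58 on WT arrays. Of the K289R arrays 5 of 7 lay above every WT array. The difference was 0.35 ± 0.10, or 1.27-fold, with an adjusted p of 0.0209 in limma. Another probe set of the gene, at a mean of 5.01, differed by 0.27 ± 0.10 with an adjusted p of 0.0552 over all probe sets.

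Slc38a9, a lysosomal carrier through which arginine is sensed upstream of the growth kinase mTORC1, fell. It measured 6.21, 6.45 and 6.70 on K289R arrays and 6.85, 7.12 and 7.31 on WT arrays. Every K289R array lay below every WT array. The difference was -0.62 ± 0.09, a 1.54-fold lower level, with an adjusted p of 3.28e-05 in limma. Another probe set named Slc38a9, at a mean of 5.68, did not follow it: its difference was -0.07 ± 0.08 with an adjusted p of 0.574 over all probe sets. With the mean of both probe sets in place of the brighter one, the difference was -0.35 (limma adjusted p = 0.000312), smaller in size than that of Slc38a6.

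Slc38a6 (SNAT6), a member whose transport role is less well described, measured 5.77, 6.39 and 6.53 on K289R arrays and 6.59, 6.87 and 6.98 on WT arrays. These ranges did not overlap. The difference was -0.53 ± 0.10, a 1.44-fold lower level (limma adjusted p = 0.000961).

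Slc38a3 and Slc38a4, the brightest genes of this family, did not pass. Slc38a3 (SNAT3), which carries glutamine in and out of hepatocytes, averaged 12.07 ± 0.12 in K289R livers and 12.04 ± 0.07 in WT livers (SD, n = 7 each). The difference of 0.03 ± 0.05 had a 95% confidence interval from -0.08 to 0.15. Slc38a4 (SNAT4), a hepatocyte carrier of alanine and other neutral amino acids, averaged 11.38 ± 0.07 in K289R livers and 11.52 ± 0.08 in WT livers (SD, n = 7 each). Its difference of -0.14 ± 0.05 lay just outside the threshold (limma adjusted p = 0.0534), and only 2 of 7 K289R arrays were below every WT array. It passed after quantile normalization (adjusted p = 0.0162) and median centring (0.0471), and differed by 0.05 after interquartile range scaling. Slc38a7, which exports glutamine from lysosomes, averaged 7.96 ± 0.19 in K289R livers and 7.87 ± 0.11 in WT livers, and Slc38a10 differed by 0.18 ± 0.08 (adjusted p = 0.16).

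Slc38a2 lies between Slc38a1 and Slc38a4 on chromosome 15 in the RefSeq gene order. The differences of the 3 neighbours were -0.05 for Slc38a1, 0.35 for Slc38a2 and -0.14 for Slc38a4, and only that of Slc38a2 passed. Slc6a13 and Slc6a12, neighbours on chromosome 6, differed by 0.07 and 0.05, and neither passed.

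The Slc36 family of proton-coupled carriers gave 1 call among 4 genes. From 1 gene, that share lay between the 19.1% of all genes and the 30.0% of genes above the olfactory level on all arrays. Slc36a4 (PAT4) measured 6.46, 6.70 and 7.03 on K289R arrays and 6.17, 6.38 and 6.72 on WT arrays. Only 2 of 7 K289R arrays lay above every WT array, and the difference was 0.33 ± 0.10, or 1.25-fold (limma adjusted p = 0.0238). Slc36a1 (PAT1), which exports small neutral amino acids from lysosomes, averaged 8.12 ± 0.21 in K289R livers and 8.11 ± 0.19 in WT livers (SD, n = 7 each), with a 95% confidence interval for the difference from -0.19 to 0.21. Slc36a2 and Slc36a3 were above the olfactory level on 3 of 14 arrays each.

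No gene of the Slc6 family passed, and many of its genes were not above the olfactory level on all arrays. These sodium- and chloride-coupled carriers move neurotransmitters, osmolytes and amino acids, and liver is known for its betaine and taurine uptake. Slc6a13 (GAT2), a carrier of GABA and taurine in hepatocytes, measured 10.79, 11.15 and 11.21 on K289R arrays and 10.91, 10.95 and 11.10 on WT arrays. Its difference of 0.07 ± 0.07 had a 95% confidence interval from -0.06 to 0.21. Slc6a12 (BGT1), the betaine carrier, averaged 9.95 ± 0.17 in K289R livers and 9.91 ± 0.15 in WT livers, and Slc6a6, the taurine carrier, averaged 9.01 ± 0.25 in K289R livers and 8.93 ± 0.09 in WT livers (SD, n = 7 each). The intervals of their differences were -0.12 to 0.21 for Slc6a12 and -0.11 to 0.27 for Slc6a6. Slc6a8, the creatine carrier, differed by 0.13 ± 0.08, and Slc6a20b by 0.24 ± 0.11 (adjusted p = 0.137).

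All 19 Slc6 differences, many of them of genes not above the olfactory level on all arrays, were above 0. So were 62.2% of the differences of all genes. With replicates 1 to 4 alone 10 of 19 were above 0, and with interquartile range scaling, an alternative chosen after seeing the data, 12 of 19 were.

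In the Slc43 family of facilitated carriers 0 of 3 genes passed. Slc43a1 (LAT3), a carrier of branched-chain amino acids, averaged 6.56 ± 0.25 in K289R livers and 6.47 ± 0.20 in WT livers (SD, n = 7 each). Slc43a3, known as a carrier of purine bases rather than amino acids, averaged 8.81 ± 0.16 in K289R livers and 8.83 ± 0.07 in WT livers, with a 95% confidence interval for the difference from -0.16 to 0.13.

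**Figure D3:**
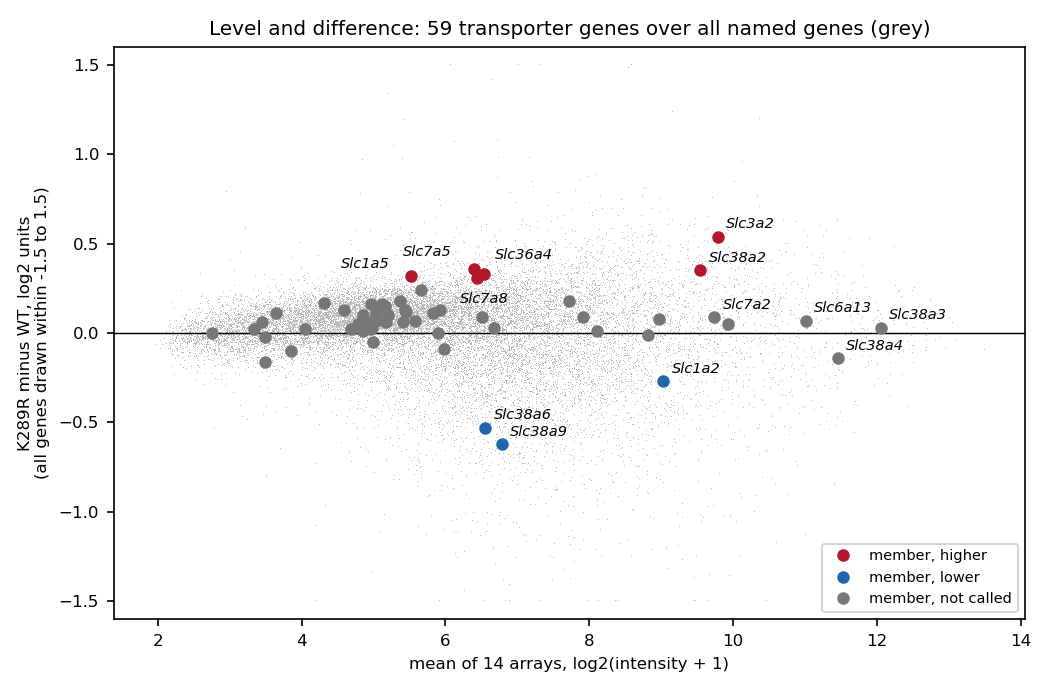
Mean of 14 arrays as log2(intensity + 1) on the horizontal axis and difference between K289R and WT livers in log2 units on the vertical axis, with the 59 transporter genes as large points over all 19237 genes in grey. The 9 genes that passed lie away from 0, while Slc38a3, Slc6a13 and Slc7a2 lie between 0.03 and 0.09.

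By replicate number, the arrays of each genotype form sets, replicates 1 to 4 and replicates 5 to 7, which are known from earlier results of these data and are not in the labels. With the sets as random blocks in limma, 4 of the 9 calls stayed: Slc3a2 (adjusted p = 9.7e-05), Slc38a9 (0.000338), Slc38a6 (0.00913) and Slc7a5 (0.0383). The adjusted p of the others became 0.0513 for Slc1a2, 0.0623 for Slc1a5, 0.102 for Slc38a2, 0.116 for Slc36a4 and 0.145 for Slc7a8. Within the sets, Slc3a2 differed by 0.65 in replicates 1 to 4 (limma adjusted p = 1.9e-05) and by 0.40 in replicates 5 to 7 (0.0341). Slc38a9 differed by -0.59 (0.000402) and -0.66 (0.00392), and Slc38a6 by -0.48 (0.00361) and -0.59 (0.038). Slc7a5 differed by 0.31 (0.029) and 0.42 (0.106).

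**Figure D4:**
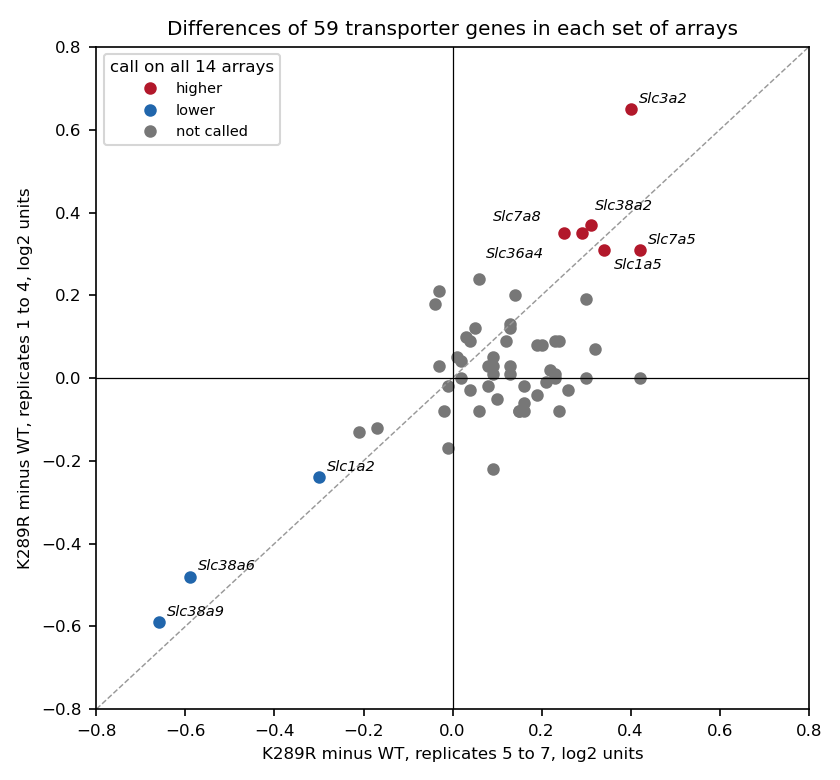
Difference between K289R and WT livers in replicates 5 to 7 on the horizontal axis and in replicates 1 to 4 on the vertical axis, both in log2 units, for the 59 transporter genes; the dashed line marks equal differences. The 9 genes that passed on all 14 arrays have the same sign in both sets.

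The same 5 genes differed within the sets by -0.24 and -0.30 for Slc1a2, 0.31 and 0.34 for Slc1a5, 0.37 and 0.31 for Slc38a2, 0.35 and 0.29 for Slc36a4, and 0.35 and 0.25 for Slc7a8, in replicates 1 to 4 and in replicates 5 to 7. Their direction was that of the whole comparison in each set, and none passed in either set alone. Slc7a8 also lost its call when any of 10 arrays was left out, and Slc36a4 without K289R replicate 2 or without WT replicate 2.

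A list of 9 transporter genes that respond to amino acid shortage through ATF4 had 8 measured members. Of these, Slc3a2, Slc7a5, Slc1a5 and Slc38a2 were higher, 0 were lower, and Slc1a4, Slc7a1, Slc7a3 and Slc7a11 did not pass. The share that passed was 50.0%, against 19.1% of all genes and 30.0% of genes above the olfactory level on all arrays. The list was written with earlier results of these data known. The median difference of the 8 was 0.25, against 0.05 over all genes. With the array sets as random blocks 2 were higher, Slc3a2 and Slc7a5.

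Of 15 measured genes of that response that are no transporters, 2 were higher and 0 were lower, with a median difference of 0.15. The share that passed was 13.3%, below the 19.1% of all genes. Asns, asparagine synthetase, measured 10.35, 10.92 and 11.13 on K289R arrays and 5.27, 6.71 and 7.33 on WT arrays, a difference of 4.53 ± 0.28 with an adjusted p of 8.78e-10 in limma. Its WT arrays split by array set, at 6.71 to 7.33 in replicates 1 to 4 and 5.27 to 5.49 in replicates 5 to 7. The Asns difference was 3.83 in replicates 1 to 4 and 5.47 in replicates 5 to 7. Chac1, which degrades glutathione, was higher by 0.39 ± 0.10 (adjusted p = 0.0121, and 0.062 with the sets as random blocks). Atf4 itself differed by -0.12 ± 0.07 and did not pass (adjusted p = 0.249).

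RefSeq promoter sequence of assembly GRCm38.p6 was searched for a core of the amino acid response element, TGATGNAA, and for an LRH-1 motif, CAAGGNCA, on both strands of the 250 bases before each start. Windows were available for 42 of the 59 transporter genes and for 7 of the 9 that passed, without Slc1a5 and Slc7a5. The response element core lay in 2 of the 42, Slc6a21 and Slc7a11, and in 3.91% of 27025 genes. The LRH-1 motif lay in 4 of the 42, Slc1a6, Slc36a4, Slc6a11 and Slc7a1, and in 6.33% of genes. Stretches around matches are shown, 5′ to 3′ on the strand of the gene with the match in capitals, for Slc7a11, a light chain that did not pass, for Asns, with the largest difference of the response genes measured, and for Slc36a4, the only passing transporter gene with either match.
Slc7a11: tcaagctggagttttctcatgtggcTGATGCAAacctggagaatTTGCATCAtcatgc
Asns: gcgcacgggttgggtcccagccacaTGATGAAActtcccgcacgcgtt
Slc36a4: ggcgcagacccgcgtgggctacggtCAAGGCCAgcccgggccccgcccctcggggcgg
The stretches lie at chr3:50443647-50443704 on the minus strand for Slc7a11, chr6:7693210-7693257 on the minus strand for Asns and chr9:15709670-15709727 on the plus strand for Slc36a4. The matches begin 66 and 47 bases before the start of Slc7a11, 23 bases before that of Asns and 43 bases before that of Slc36a4. The windows of Slc3a2, Slc7a8, Slc38a2, Slc38a6, Slc38a9 and Slc1a2 held neither set of letters. A match describes the letters in the window, and its use in liver was not measured. Sequence after each start, introns included, and sequence further upstream were not searched. The lack of a match therefore does not show that a gene lacks the element.

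Beside Slc38a9, the lysosomal sensing machinery of mTORC1 was counted. Of 31 measured genes, 4 were higher and 4 were lower, with a median difference of 0.06. The share that passed was 25.8%, against 19.1% of all genes and 30.0% of genes above the olfactory level on all arrays. The 4 with the smallest p all fell: Rheb, the GTPase that activates mTORC1, differed by -1.37 ± 0.12, Seh1l, a subunit of GATOR2, by -0.88 ± 0.10, Sesn3, a sestrin, by -0.53 ± 0.08, and Rraga, a Rag GTPase, by -0.41 ± 0.08 (limma adjusted p of 6.22e-08, 1.99e-06, 0.000115 and 0.00148). The arrays of the genotypes did not overlap for these 4 of the 31 genes, against 7.54% of all genes. The 4 higher genes were Kptn (0.33 ± 0.11), Lamtor5 (0.28 ± 0.07), Flcn (0.25 ± 0.08) and Castor2 (0.24 ± 0.08). Their limma adjusted p was 0.0481, 0.0116, 0.0242 and 0.0299. The higher count depended on the setting: it was 8 with quantile normalization, 7 with interquartile range scaling, 0 with median centring and 0 with the array sets as random blocks. The lower count was 5 with interquartile range scaling and 4 with the other 3 settings.

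Carriers of amino acids and dipeptides outside the 7 families gave 2 higher and 0 lower calls among 10 genes. The share of these carriers that passed was close to the 19.1% of all genes. It was below the 30.0% of genes above the olfactory level on all arrays. Slc15a4, a lysosomal carrier of histidine and dipeptides, measured 7.17, 7.60 and 7.90 on K289R arrays and 6.79, 7.00 and 7.14 on WT arrays. The ranges did not overlap, and the difference was 0.62 ± 0.11 (limma adjusted p = 0.000248). Ctns, the lysosomal cystine carrier, was higher by 0.29 ± 0.10 (adjusted p = 0.0389, and 0.143 with the sets as random blocks). Of 3 measured partner proteins of carriers, Bsg (basigin) was higher by 0.25 ± 0.05 (adjusted p = 0.00115). The share of these partner proteins that passed was 33.3%, from 1 gene, against 19.1% of all genes and 30.0% of genes above the olfactory level on all arrays.

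Markers of other cell types were compared across the same arrays. Of 7 Kupffer cell markers, 0 were higher and 2 were lower: Vsig4 differed by -0.75 ± 0.12 and C1qc by -0.52 ± 0.11 (limma adjusted p = 0.000102 and 0.00225), and the mean of the list was 6.87 to 7.54 on K289R arrays and 7.32 to 7.59 on WT arrays. The other Kupffer cell markers, Cd5l (-0.25), Timd4 (-0.05), Csf1r (-0.03), Clec4f (-0.02) and Marco (0.16), did not pass. Of 6 stellate cell markers, Des and Reln were higher and 0 were lower, with list means of 7.48 to 7.68 on K289R arrays and 7.37 to 7.60 on WT arrays. Colec11 (-0.13), Lrat (-0.10), Col1a1 (0.10) and Dcn (0.13) did not pass. The shares that passed were 28.6% for Kupffer and 33.3% for stellate cell markers. Over all genes the share was 19.1%, and 30.0% above the olfactory level on all arrays. Of the markers of sinusoidal endothelium (6), cholangiocytes (5), T and NK cells (5), B and plasma cells (3), neutrophils (4), erythroid cells (1) and exocrine pancreas (4), 0 passed. The part of these markers' cells in the transporter differences was not tested.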

How the data were processed

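Liver RNA of 7 K289R and 7 WT mice was hybridised to Affymetrix whole-transcript arrays from 100 ng of total RNA, per the labels' protocols. The deposited values are probe set intensities on a linear scale, which the authors obtained from Affymetrix Expression Console according to the submitters' processing notes. Its version, background correction, summarisation and genome build are not given in the sources used here, and whether arrays were scaled to each other is unknown. Intensities ran from 2.104 to 12782, with array medians of 39.19 to 43.31. Arrays have no read depth, and their number limits the precision.

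Of 35556 probe sets, the platform annotation gave 1 symbol to 21456, several to 2376 and none to 11724. Symbols were checked by Entrez identifier against RefSeq GRCm38.p6 (21277 matched, 2 replaced, none of them a transporter gene). limma 3.58.1 in R 4.3.3 was fitted to log2(intensity + 1), a scale that understates changes of dim genes, for 19237 genes. Genotype was the only term, the prior variance followed an intensity trend, and p was adjusted by Benjamini-Hochberg. Lists and figures used Python 3.11.15, pandas 2.3.3 and matplotlib 3.10.9. The fit was tested on simulated data.

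The genes and lists were chosen with earlier results of these data known. Every passing transporter gene was named, with the brightest 2 others of each family, the amino acid response transporters, 10 carriers set by name, and up to 4 passing genes of each other list by smallest p (otherwise the 2 with the smallest p). Departing from that rule, cell marker lists with no passing gene are given as counts only. Others were chosen after their values were seen. Replicate numbers were checked for pairing: deviations of same-numbered arrays correlated between -0.298 and 0.562, and 2 of 7 numbers matched best with their own, so no pairing was used. The alternatives, 31 fits or thresholds, covered pseudocount, normalization, probe sets, dim genes, variance prior, array weights, replicate block, array sets, each array left out and the threshold.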

Additional observations from a re-analysis of the deposited data

Results flagged for a closer look

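Levels of the 59 genes were examined in the 7 arrays of each genotype for an array far from the others, as the gap to its nearest neighbour over the whole range of the group, against Dixon's critical value for 7 arrays. Of 118 groups, 9 exceeded it, and chance gives about 5%. WT replicate 7 was the lowest of its group for Slc1a2 at 8.97 (ratio 0.617, next array 9.14), for Slc6a12 at 9.61 (0.589) and for Slc38a4 at 11.36 (0.637, next array 11.51). WT replicate 6 was the highest for Slc6a4 at 5.01 (0.589) and for Slc6a19 at 4.41 (0.601), and WT replicate 5 for Slc38a1 at 5.27 (0.643). K289R replicate 2 was the lowest for Slc6a6 at 8.48 (0.629, next array 8.96), K289R replicate 1 the lowest for Slc6a20a at 4.73 (0.588) and K289R replicate 7 the highest for Slc7a6 at 5.37 (0.583). Of these genes only Slc1a2 passed the comparison, and it kept its call without WT replicate 7. Without that array Slc38a4 passed. Slc6a4, Slc6a19, Slc6a20a, Slc7a6 and Slc38a1 were not above the olfactory level on all arrays.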

How the results depend on the processing

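None of the 9 transporter genes that passed turned its direction in the 31 alternatives. Slc3a2, Slc38a6 and Slc38a9 kept their calls in all of them, and Slc7a5 lost its call only with replicates 5 to 7 alone. The total of 9 became 4 with the array sets as random blocks, 4 with replicates 1 to 4 alone, 3 with replicates 5 to 7 alone and 5 at an adjusted p of 0.01. The 6 higher calls became 3 with median centring, 2 with the random blocks, 2 with replicates 1 to 4, 1 with replicates 5 to 7 and 2 at an adjusted p of 0.01. The 3 lower calls became 5 with quantile normalization. With the replicate block, 6 were higher and 3 lower, and the numbers did not pair the arrays. Leaving out 1 array at a time gave 7 to 9 calls, 4 to 6 higher and 3 to 4 lower, and 7 of the 9 genes kept their call in all 14 of these fits. After seeing the data, 2 alternatives were added. Without the 2 K289R arrays of lowest interquartile range 8 were higher and 3 lower, adding Slc7a2 (0.23, adjusted p = 0.0196) and Slc38a10 (0.26, adjusted p = 0.0259). Interquartile range scaling gave 6 and 3, with Slc1a2 (adjusted p = 0.221) and Slc7a8 (0.0508) no longer passing. The causes were not tested. A level near that of olfactory receptor genes limits what can be read of 29 of the 59 genes.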

Other observations

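Enzymes of amino acid metabolism, chosen mainly for breakdown, were counted beside the carriers. The list also holds Glul, glutamine synthetase, which did not pass. Bckdk, a kinase that restrains branched-chain breakdown, is among its higher genes (0.23 ± 0.08, limma adjusted p = 0.038). Of 26 measured enzymes 7 were higher and 1 was lower in K289R livers, with a median difference of 0.12. The share that passed was 30.8%, against 19.1% of all genes and 30.0% of genes above the olfactory 95th percentile on all arrays. The count of higher enzymes was 4 with median centring, 5 with the array sets as random blocks, 2 with replicates 5 to 7 alone, 9 with quantile normalization, and 11 with array weights or without the 2 K289R arrays of lowest interquartile range. Gpt2, mitochondrial alanine aminotransferase, measured 10.73, 10.79 and 11.01 (lowest, median and highest) on K289R arrays and 10.15, 10.27 and 10.35 on WT arrays, a difference of 0.60 ± 0.06 (limma adjusted p = 4.39e-07). In the glycine cleavage system, Gldc, the decarboxylase subunit, was higher by 0.36 ± 0.05 and Gcsh, the lipoyl carrier subunit, differed by -1.05 ± 0.10 (adjusted p = 5.81e-05 and 2.24e-07). Gcsh measured 5.21, 5.70 and 5.86 on K289R arrays and 6.48, 6.66 and 6.91 on WT arrays. Bcat2, the mitochondrial branched-chain aminotransferase, was higher by 0.34 ± 0.07 (adjusted p = 0.00122). The arrays of the genotypes did not overlap for Gpt2, Gldc, Gcsh and Bcat2, 4 of the 26 enzymes, against 7.54% of all genes. These 4 were also named for their smallest p, so the lack of overlap is no separate result.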
